A study of Homo sapiens with 12 samples.

Results

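Heat shock proteins and J-domain co-chaperones were examined in RNA-sequencing libraries of human embryonic stem cells (hESCs) of the line WA26, with and without the gene UBQLN1. Genes were taken by symbol: the DNAJA, DNAJB and DNAJC families, the HSPA and HSPB families, 3 HSP90 genes (HSP90AA1, HSP90AB1 and HSP90B1), HSPD1, HSPE1 and HSPH1. The rule found 72 genes among the 28278 in the count table, namely 4 DNAJA, 13 DNAJB, 26 DNAJC, 15 HSPA, 8 HSPB, 3 HSP90 genes and the 3 others. Of these, 61 had enough counts to be tested. There were 4 groups of 2 libraries: WT cells at normal O2 without treatment, KO cells (genotype UBQLN1-/-) at normal O2 without treatment, KO cells at 5% O2, and KO cells given N-acetylcysteine (NAC), an antioxidant, whose titles name no O2 level. The KO lines were made with Cas9 and guide RNAs and picked as clones. The labels do not say which clone gave each library, so a difference between KO and WT can also be a difference between clones, and p-values measure the spread between these libraries, which may be technical. Treated WT libraries were not analysed here, and the effect of NAC or low O2 in WT cells was therefore not tested. Where the libraries of 2 groups are said to lie apart, this describes 2 values per group. How often it held over all genes was not counted.

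Chaperones of the HSP70 family bind exposed hydrophobic stretches of unfolded proteins and release them in a cycle driven by ATP. J-domain proteins bring clients to HSP70 and stimulate its ATPase, while exchange factors such as the HSP110 proteins release ADP and open the cycle again. HSP90 acts later on kinases, receptors and other nearly folded clients, HSPD1 and HSPE1 form the folding chamber and lid of the mitochondrial matrix, and small heat shock proteins hold aggregating proteins. The compartments have their own sets, for example HSPA5 (BiP) with its J-domain partners in the endoplasmic reticulum (ER) and HSPA9 (mortalin) in mitochondria. UBQLN1 carries ubiquitinated clients to the proteasome, and ubiquilins have been described as binding HSP70-type proteins, HSPA13 (Stch) among them.

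Library totals ran from 31236968 to 41639350 counts. UBQLN1 itself was at 221 and 197 CPM (read counts scaled by the normalized library size) in WT, at 42.3 and 43.5 CPM in untreated KO, at 51.9 and 47.7 CPM in KO at 5% O2 and at 62.4 and 49.3 CPM in KO with NAC, in the order of the labels' replicate numbers, which is kept throughout. The summed CPM of 10 pluripotency markers was between 5520 and 7220 in every library and lowest in the NAC libraries, with POU5F1, SOX2 and NANOG above 100 CPM in each. The summed CPM of 6 neural progenitor markers was from 440 to 466 in untreated KO, from 242 to 278 in WT, from 222 to 298 at 5% O2 and from 131 to 143 with NAC. For 5 mesoderm and 5 muscle markers it stayed at or below 8.41, and for 4 endoderm markers below 1. NAC replicate 1 stood apart in stromal markers: the 10 listed genes summed to 1050 CPM there and to between 528 and 641 CPM in the other 7 libraries, and DCN, at 47.2 CPM, and LUM, at 3.86 CPM, were at 0 in all others. The part of these marker differences in the results below was not tested, and the counts of members called with NAC are also given without NAC replicate 1.

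The chaperones were an abundant class. Their counts made up 1.74% and 1.62% of the library in WT, 1.67% and 1.57% in untreated KO, 1.79% and 1.76% at 5% O2 and 1.88% and 1.87% with NAC, so both NAC libraries lay above all others. The same 5 genes, HSP90AB1, HSPA8, HSP90AA1, HSPD1 and HSPA5, held from 69.1% to 70.9% of the members' counts in every library. Per kilobase of transcript, HSP90AB1, the constitutive cytosolic HSP90, led in WT with 1467 ± 85.1 CPM per kb (SD, n = 2), followed by HSPA8, the constitutive cytosolic HSP70 (HSC70), with 1180 ± 10.7, and HSP90AA1, the stress-inducible HSP90, with 791 ± 76.6 (both in CPM per kb, SD, n = 2). The stress-inducible HSP70 genes had few counts. HSPA1B was at 2.06 ± 0.453 and HSPA1A at 0.105 ± 0.0107 CPM per kb in WT (SD, n = 2), and HSPA6 held at most 4 counts in any library. Of the 31-base words of HSPA1B and HSPA1A, 98.8% and 98.7% also occur on alternate-locus scaffolds, and 68.8% of those of HSPA6 occur elsewhere in the primary assembly, so reads of these genes can be left uncounted and their counts do not give their level. The other untested members were HSPA7, HSPA1L, HSPB3, DNAJB3 and DNAJB8, each at 0 counts in all 8 libraries (which allows up to 3 counted reads per library, and for HSPA1L, HSPA7 and DNAJB3 leaves out reads lost to copies, since 99.0% of the words of HSPA1L lie on alternate scaffolds and 69.9% and 38.5% of those of HSPA7 and DNAJB3 elsewhere in the primary assembly), and DNAJB7, DNAJB13, DNAJC28, HSPB7 and HSPB9, with totals of 14 to 30 counts over the 8 libraries. The low counts of HSPA1A, HSPA1B and HSPA6 were common to all 4 groups.

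DNAJA4, a class A J-domain co-chaperone of cytosolic HSP70, was nearly absent without UBQLN1. It held 164 and 177 counts in the WT libraries, 3 and 4 in untreated KO, 3 and 6 in KO at 5% O2, and 20 and 6 in KO with NAC. All 6 KO libraries thus lay far below both WT libraries. In these bulk libraries, fewer cells that make a transcript and less of it per cell cannot be told apart. In CPM these were 4.92 and 4.59 in WT, 0.0813 and 0.0972 in untreated KO, 0.0736 and 0.187 at 5% O2, and 0.522 and 0.2 with NAC. The log2 fold change of untreated KO against WT was -5.68 (SE 0.58, edgeR adjusted p = 0.000424), the 13th lowest of 15916 genes tested, and it ran from -5.81 to -5.56 when each library was left out. DNAJA4 was named for this contrast when the genes were chosen, so its value is a description. From pooled counts, WT exceeded untreated KO 52.9-fold (95% exact interval 25.4 to 132), KO at 5% O2 38.4-fold (20 to 84.6) and KO with NAC 12.4-fold (8.35 to 19.3), intervals that cover counting error only.

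DNAJA4 lies on chromosome 15 at 78264086 to 78282196 (hg38, GENCODE v44, plus strand), and its neighbours did not share the pattern. The genes within 250 kb of it that were tested, among them CIB2, IDH3A, ACSBG1, WDR61, CRABP1 and IREB2, had log2 fold changes between KO and WT of -0.305 to 0.208, and each missed an adjusted p of 0.05. WDR61, whose annotated span overlaps the end of DNAJA4, was at 58.8 and 69.9 CPM in WT and 52.1 and 52 CPM in untreated KO. No exon base of the main transcript of DNAJA4 is shared with another gene of the count table. The 250 bases before the RefSeq start of DNAJA4 (GRCh38.p14, chr15:78263895-78264144, plus strand) are shown because no other member changed as much, with each CG dinucleotide in capitals. They hold 9 CG dinucleotides, against a median of 11 over 27305 promoters of the same length and of 19 over the 64 members with a promoter in the RefSeq table. The RefSeq start lies inside the GENCODE span given above, so the end of this window falls within the gene as annotated there. DNA methylation was not measured in these files.
DNAJA4: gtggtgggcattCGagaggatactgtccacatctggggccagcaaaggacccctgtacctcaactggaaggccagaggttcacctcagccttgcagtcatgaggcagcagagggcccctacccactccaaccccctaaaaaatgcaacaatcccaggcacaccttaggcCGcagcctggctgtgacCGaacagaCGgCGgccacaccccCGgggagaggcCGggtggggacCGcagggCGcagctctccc

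The other class A genes did not follow DNAJA4. DNAJA1, a cytosolic HSP70 partner, was at 256 and 219 CPM in WT and 260 and 247 CPM in untreated KO, and the groups overlapped (log2 fold change 0.09, SE 0.12, edgeR adjusted p = 0.739). DNAJA2, which works with HSC70 in refolding, was at 170 and 175 CPM in WT and 167 and 152 CPM in untreated KO (log2 fold change -0.12, SE 0.10, edgeR adjusted p = 0.571). DNAJA4 was a minor class A gene already in WT, with 0.902% and 0.91% of the summed CPM per kb of DNAJA1 to DNAJA4. Its share in the KO libraries was between 0.0115% and 0.0856%. The plot of the class A genes by library sets these levels side by side.

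**Figure D1:**
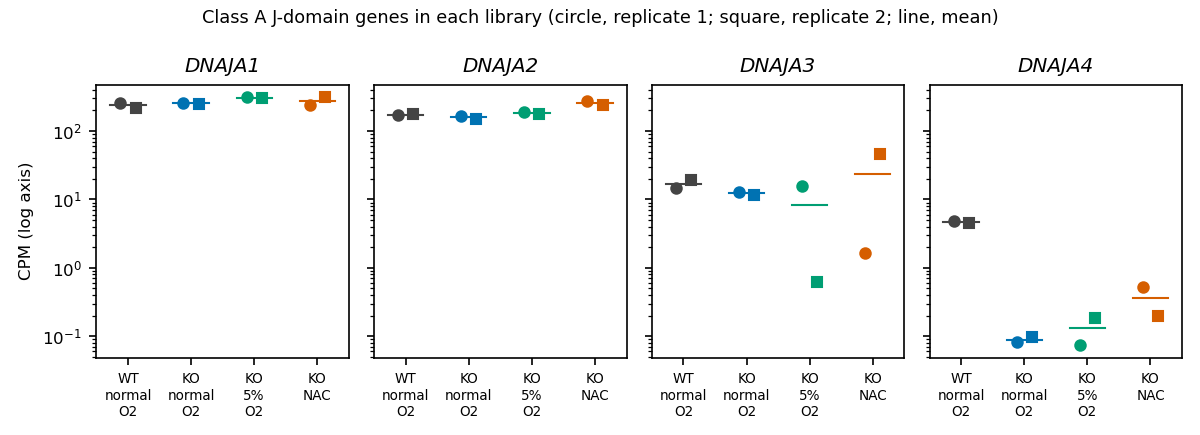
CPM (log axis) of the 4 class A J-domain genes in each library of the 4 groups, with circles for replicate 1, squares for replicate 2 and lines for group means. DNAJA4 fell from over 4 CPM in both WT libraries to between 0.0736 and 0.522 CPM in the 6 KO libraries, while DNAJA1 and DNAJA2 stayed above 100 CPM in all 8, and DNAJA3 was split within 2 of the groups.

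DNAJA3, the mitochondrial class A member (Tid1), was erratic between replicates. It held 497 and 733 counts in WT, 477 and 478 in untreated KO, 645 and 20 at 5% O2, and 64 and 1378 with NAC. The gap within the 5% O2 pair and within the NAC pair exceeded 8-fold, with opposite replicates low, and no other of the 15916 tested genes was low by that much in both of these libraries. For DNAJA3, 88.6% of the 31-base words of its main transcript also occur on alternate-locus scaffolds of hg38, where reads that match several places would be left uncounted. Of the 22 genes whose 5% O2 libraries were over 8-fold apart, 20 had a share of at least 10% on such scaffolds, and of the 51 genes with a known share whose NAC libraries were that far apart, 20 did, against 868 of 15464 tested genes. The cause of the split between DNAJA3 replicates was not tested. Its log2 fold change was -0.47 between KO and WT (SE 1.10), 0.95 between NAC and untreated KO (SE 1.10) and -0.55 between 5% and normal O2 (SE 1.11). Leaving out NAC replicate 2 turned the NAC value to -2.87, past the threshold.

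Beyond DNAJA4, the chaperone genes differed little between untreated KO and WT cells. With edgeR, 1 of 61 tested members was lower at an adjusted p under 0.05, DNAJA4, where 0.622% of all tested genes were lower, and 0 members were higher, where 1.34% of all genes were. Before adjustment, 7 members were lower and 2 higher at p under 0.05, where 8.12% and 9.5% of all genes were. DESeq2 called 3 lower, DNAJA4, DNAJC8 and HSPA13, and 0 higher, where it called 2.11% and 3.71% of all genes. The median log2 fold change was -0.03 over the members and -0.0024 over all 15916 genes. By the criteria of the study (a change of more than 1 on the log2 scale in either direction with p under 0.05 before adjustment, applied here to the edgeR p-values), 2 members were lower, DNAJA4 and HSPB2, against 1.46% of all genes, and 0 were higher, against 1.11%.

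HSPB2, a small heat shock protein of muscle, was close to the detection limit, at 19 and 16 counts in WT and 6 and 3 in untreated KO, and 85.5% of its exon bases are shared with other annotated genes, CRYAB among them. HSPA13, an HSP70 relative of the ER, was at 61.1 and 59 CPM in WT and 48.8 and 47.1 CPM in untreated KO, so the groups did not overlap, with a log2 fold change of -0.32 (SE 0.09, edgeR adjusted p = 0.101). DNAJC8, a J-domain protein of the spliceosome, was at 152 and 167 CPM in WT and at 127 in both KO libraries (log2 fold change -0.32, SE 0.10, edgeR adjusted p = 0.118). HSPA2, an HSP70 best known from the testis, was at 46.8 and 44.6 CPM in WT and 35.5 and 34 CPM in untreated KO (log2 fold change -0.40, SE 0.12, edgeR adjusted p = 0.117). These 3 genes missed the threshold. Others lay in the opposite direction and missed it too. DNAJC30 was at 10.6 and 10.9 CPM in WT and 13.4 and 14.1 CPM in untreated KO (log2 fold change 0.35, SE 0.15, edgeR adjusted p = 0.245). DNAJC16 was at 19.5 and 19.7 against 25.5 and 22.4 CPM (0.29, SE 0.13, edgeR adjusted p = 0.279). The inducible co-chaperone DNAJB1 (HSP40) was at 135 and 144 CPM in WT and 133 and 136 CPM in untreated KO, HSPH1 (HSP105) at 250 and 214 against 253 and 241 CPM, and HSPB1 (HSP27) at 144 and 153 against 147 and 157 CPM. The 2 groups overlapped for each of these heat-inducible genes. HSPA1A held 9 and 9 counts in WT and 10 and 14 in untreated KO.

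**Figure D2:**
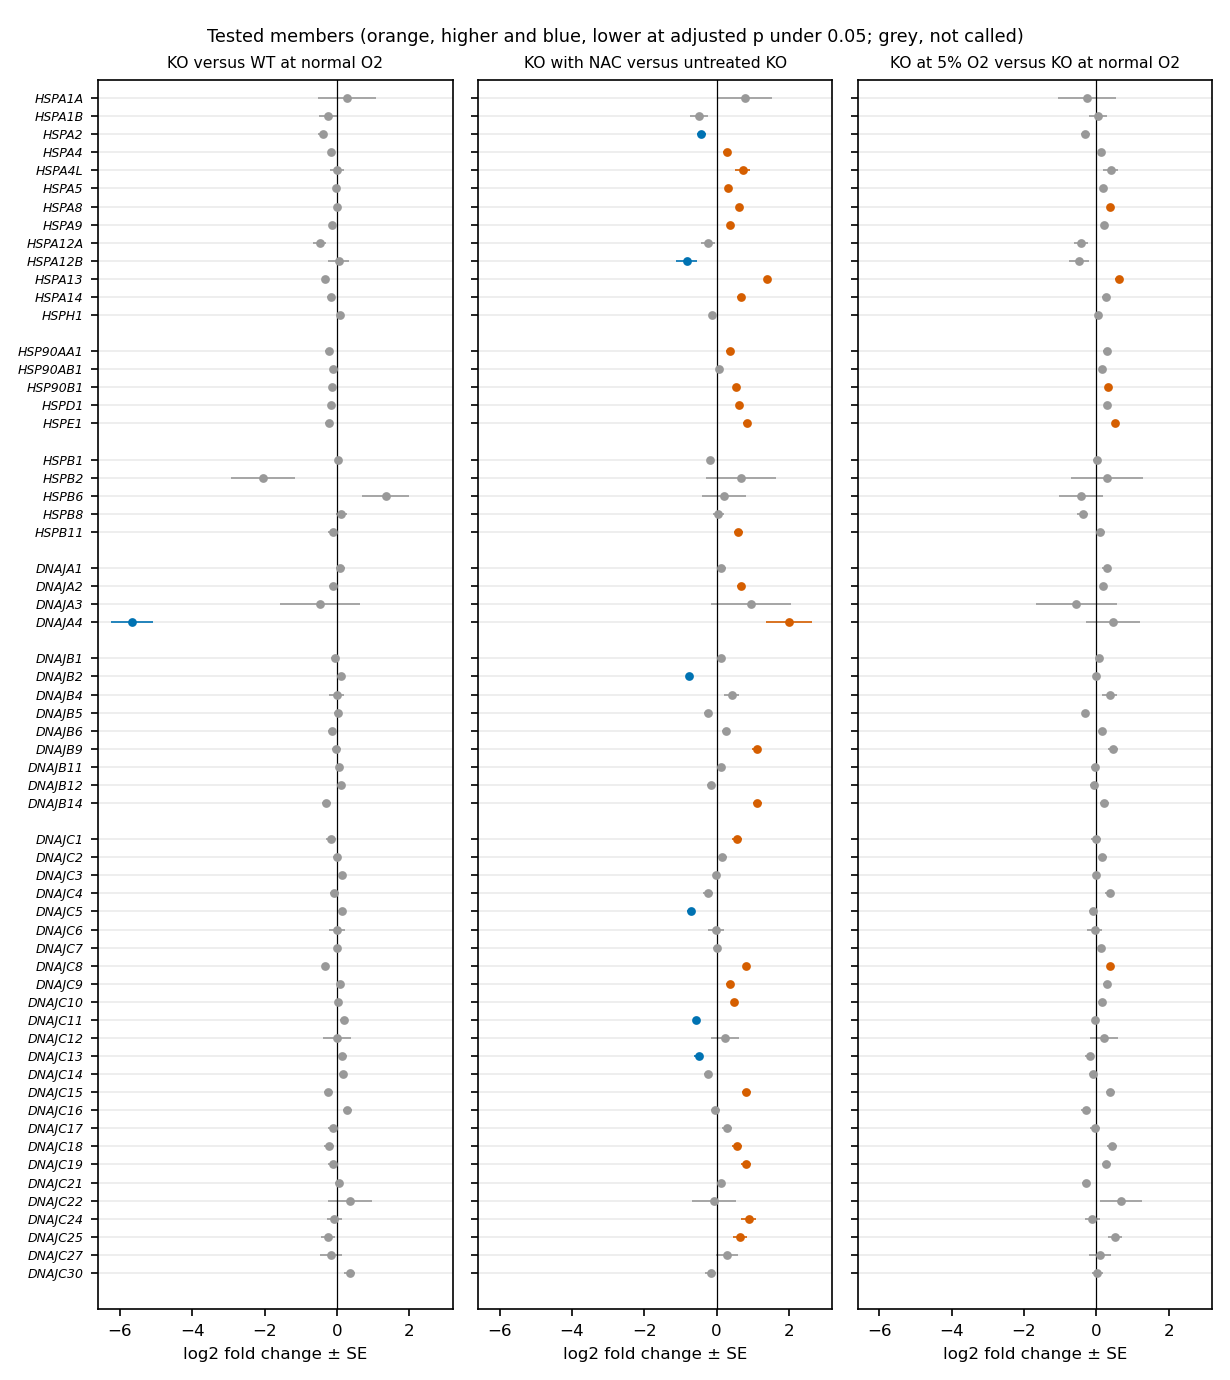
Log2 fold change with its SE for each of the 61 tested members in 3 comparisons, with 2 libraries per group; orange marks members higher and blue members lower at an adjusted p under 0.05, and grey the others. DNAJA4 is the coloured point between KO and WT, while 25 members are higher and 6 lower with NAC and 5 are higher at 5% O2.

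Many chaperone genes differed between KO cells with NAC and untreated KO cells, most of them higher with NAC as fitted. The study describes culture with NAC over passages and DMSO as the control, and the titles name neither for these libraries. A difference in time in culture or vehicle therefore cannot be told apart from NAC. With edgeR, 25 of 61 tested members (41.0%) rose against untreated KO, where 23.8% of all tested genes rose, and 6 members (9.84%) fell, where 20.8% of all genes fell. The median log2 fold change was 0.28 over the members and 0.023 over all genes. By the study's criteria 4 members were higher, DNAJA4, HSPA13, DNAJB14 and DNAJB9, against 3.63% of all genes, and 0 were lower, against 5.39%. Without NAC replicate 1, which held the stromal transcripts, 23 members were higher and 7 lower. Of the 25 that rose, 21 were still called then (DNAJA4, HSP90AA1, HSPA4 and HSPA4L were not), and 16 were called in every fit that left out 1 library, the others being those 4, HSPA5, DNAJC1, DNAJC9, DNAJC18 and DNAJC25. Without NAC replicate 1 HSPA12B was lost among the 6 that fell, and in every fit 3 were called (DNAJB2, DNAJC5 and DNAJC11). Without untreated KO replicate 1, 19 of the 25 and 3 of the 6 were called, and without untreated KO replicate 2, 17 and 4.

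Fold changes in all genes tracked base composition, and the members shared that trend. Across the 61 members the log2 fold change with NAC fell with the GC content of the transcript (Spearman's rho -0.541, across genes, which are not independent replicates), and across 15464 tested genes with a known GC content rho was -0.493. Once the dependence of each library on GC content and transcript length had been fitted as a curve and taken out, 11 members were higher, where 13.8% of all genes were, and 8 were lower, where 11.7% were, and the median over the members was 0.008. Of the 25 members higher with NAC, 10 stayed called: DNAJA4, HSPA5, HSPA8, HSPA13, DNAJB14, DNAJC1, DNAJC8, DNAJC10, DNAJC15 and DNAJC18. The sign turned for HSPE1, HSP90AA1, HSPB11, DNAJC9 and DNAJC19. Of the 6 lower members, DNAJB2, DNAJC11 and DNAJC13 stayed called. Whether the trend comes from the library preparation or from the cells was not tested, and values with the trend removed are set beside the fitted ones below.

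**Figure D3:**
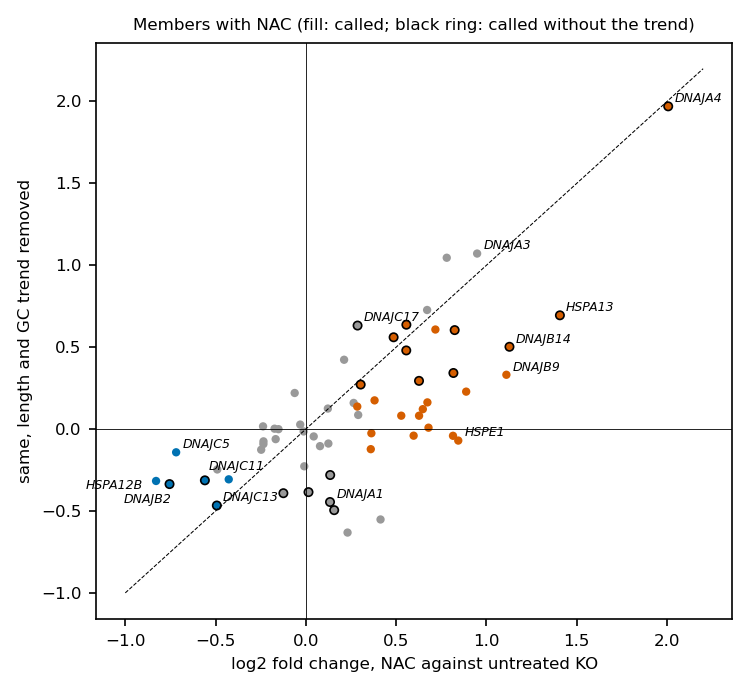
Log2 fold change of each tested member in KO with NAC against untreated KO, as fitted (horizontal axis) and after removal of the length and GC trend (vertical axis); orange and blue fill mark members called higher or lower as fitted, black rings those called after removal, and the dashed line equal values. Most orange points lie below the dashed line, and HSPA13 moves from 1.41 to 0.69 while DNAJA4 stays near 2.

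DNAJA4 itself was higher with NAC, at 20 and 6 counts against 3 and 4 in untreated KO. The log2 fold change was 2.01 (SE 0.64, edgeR adjusted p = 0.0234). It rested on NAC replicate 1, without which it was 1.13 with an adjusted p of 0.262, and the call was also lost without untreated KO replicate 1 (1.89, edgeR adjusted p = 0.107) or replicate 2 (2.14, edgeR adjusted p = 0.0874). Even with NAC, the pooled level was 8.04% of that in WT.

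Most of the listed ER members were higher with NAC as fitted. Of 13 tested, 9 were higher (HSPA5, HSPA13, HSP90B1, DNAJB9, DNAJB14, DNAJC1, DNAJC10, DNAJC18 and DNAJC25), where 23.8% of all genes were. Their list had a median log2 fold change of 0.53. With the trend removed 6 were higher, where 13.8% of all genes were, and 1, DNAJB11, was lower, where 11.7% were. The median was then 0.27. HSPA13 was at 48.8 and 47.1 CPM in untreated KO and at 134 and 121 CPM with NAC. The NAC libraries lay above all 6 others, the nearest being 75.4 CPM at 5% O2. Its log2 fold change was 1.41 (SE 0.09, edgeR adjusted p = 1.28e-05) and 0.69 with the trend removed (edgeR adjusted p = 0.00043). DNAJB9 (ERdj4), a BiP partner of the unfolded protein response, was at 13.3 and 14.2 CPM in untreated KO and at 31.7 and 27.7 CPM with NAC (log2 fold change 1.11, SE 0.13, edgeR adjusted p = 5.19e-05), and at 0.33 with the trend removed (edgeR adjusted p = 0.0533). DNAJB14, an ER membrane J-domain protein of the degradation pathway, went from 23.9 and 24.9 to 60.6 and 46 CPM (log2 fold change 1.13, SE 0.13, edgeR adjusted p = 5.28e-05), and to 0.50 with the trend removed (edgeR adjusted p = 0.0183).

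HSPA5 (BiP), the ER HSP70 that holds the stress sensors inactive, moved less. It was at 1003 and 1000 CPM in untreated KO and at 1168 and 1305 CPM with NAC, a log2 fold change of 0.30 (SE 0.08, edgeR adjusted p = 0.00738) that was 0.27 with the trend removed. The call was lost without untreated KO replicate 1 or 2, where the adjusted p reached 0.0581. HSP90B1 (GRP94), the ER form of HSP90, went from 779 and 689 to 1054 and 1063 CPM (log2 fold change 0.53, SE 0.09, edgeR adjusted p = 0.000394), but its value was 0.08 with the trend removed. DNAJC10 (ERdj5), a disulphide reductase that helps clear misfolded proteins, went from 134 and 129 to 188 and 180 CPM, with 0.49 as fitted and 0.56 with the trend removed. Members of the same compartment that missed the test were DNAJB11 (ERdj3), at 87.5 and 80.2 against 98.2 and 85.9 CPM, DNAJB12, DNAJC3 (P58IPK), at 41.1 and 37.8 against 39.2 and 39.3 CPM, and DNAJC16. HYOU1, the ER exchange factor that opens BiP, was at 450 and 450 CPM in untreated KO and 408 and 507 CPM with NAC. Its log2 fold change was 0.02 as fitted (edgeR adjusted p = 0.87) and 0.45 with the trend removed (edgeR adjusted p = 0.00556).

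The promoters of the 4 chaperones below are given because they hold the classical stress elements or the largest changes. All are from RefSeq (GRCh38.p14), 250 bases that end just before the start, read 5′ to 3′ on the gene's strand, with the matches of 1 motif per promoter, the one named next, in capitals on either strand. HSPA5 (chr9:125241344-125241593, minus strand) and HSP90B1 (chr12:103930160-103930409, plus strand) hold the ER stress element (CCAAT and CCACG with 9 bases between them), at 1 and at 2 places, HSPA8 (chr11:123062137-123062386, minus strand) holds 2 cores of the heat shock element, GAANNTTC, and HSPA13 (chr21:14383147-14383396, minus strand) 1 core of the hypoxia response element, ACGTG.
HSPA5: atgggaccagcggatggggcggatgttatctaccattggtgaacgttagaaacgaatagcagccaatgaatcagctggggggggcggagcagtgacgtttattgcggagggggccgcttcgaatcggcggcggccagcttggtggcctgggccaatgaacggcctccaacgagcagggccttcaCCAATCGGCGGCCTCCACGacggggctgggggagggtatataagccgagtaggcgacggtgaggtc
HSP90B1: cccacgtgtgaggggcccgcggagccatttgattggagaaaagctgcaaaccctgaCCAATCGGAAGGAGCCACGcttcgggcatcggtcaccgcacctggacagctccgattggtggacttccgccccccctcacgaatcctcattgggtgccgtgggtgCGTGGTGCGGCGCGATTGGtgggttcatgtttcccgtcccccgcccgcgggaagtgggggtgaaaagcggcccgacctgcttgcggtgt
HSPA8: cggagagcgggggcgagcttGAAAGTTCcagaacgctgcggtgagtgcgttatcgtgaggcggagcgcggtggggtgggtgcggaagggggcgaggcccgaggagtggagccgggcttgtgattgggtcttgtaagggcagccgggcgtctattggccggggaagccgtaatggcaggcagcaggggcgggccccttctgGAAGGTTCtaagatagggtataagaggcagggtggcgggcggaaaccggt
HSPA13: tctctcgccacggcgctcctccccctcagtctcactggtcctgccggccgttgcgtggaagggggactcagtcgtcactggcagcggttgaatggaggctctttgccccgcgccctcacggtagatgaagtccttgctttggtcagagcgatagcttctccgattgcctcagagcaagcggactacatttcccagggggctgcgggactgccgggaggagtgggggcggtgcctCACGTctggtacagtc

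Over the 64 members with a promoter in the table, the ER stress element was found in 2 (HSPA5 and HSP90B1, 3.12%) and in 0.0806% of 27305 promoters. The heat shock core was found in 11 members (17.2%), HSPA8, HSPA1A, HSPA1B, HSPB1 and DNAJA1 among them, and in 5.85% of promoters, and its 3-unit form, the core followed after 2 bases by GAA, in 3 members (DNAJB6, HSPA6 and HSPA8, 4.69%) and in 0.439% of promoters. The hypoxia core ACGTG was found in 20 members (31.2%) and in 18.7% of promoters. The box CCAAT, which is also the first part of the ER stress element, was found in 25 members (39.1%) and in 33% of promoters. The starts are those of RefSeq. By the GENCODE spans, the printed windows of HSP90B1, HSPA8 and HSPA13 lie within the annotated gene, and that of HSPA5 does in part. A match is only a description of these letters. Of the 9 ER members higher with NAC, HSPA5 and HSP90B1 carry the ER stress element in this window.

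Mitochondrial chaperones were also mostly higher with NAC as fitted, and few stayed so once the base composition trend was removed. Of 8 tested, 5 were higher (HSPA9, HSPD1, HSPE1, DNAJC15 and DNAJC19), where 23.8% of all genes were. DNAJC11 was lower, where 20.8% of all genes were, and the median log2 fold change was 0.72. With the trend removed 1 was higher (DNAJC15) and 1 lower (DNAJC11), where 13.8% and 11.7% of all genes were, with a median of 0.02. HSPD1 (HSP60) went from 1328 and 1259 to 2083 and 1911 CPM, above every other library (log2 fold change 0.63, SE 0.08, edgeR adjusted p = 0.000105), and its value without the trend was 0.08. HSPE1 (HSP10), its lid, went from 58.6 and 51.7 to 101 and 96.8 CPM (log2 fold change 0.84, SE 0.11, edgeR adjusted p = 8.69e-05), and its value without the trend was -0.07. For HSPE1, 34.5% of exon bases are shared with the readthrough gene HSPE1-MOB4.

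DNAJC15 (MCJ), which sits in the inner membrane at the import channel, went from 13 and 14.1 to 23.8 and 24.2 CPM, with 0.82 as fitted (SE 0.12, edgeR adjusted p = 0.000245) and 0.60 with the trend removed. DNAJC19 (TIM14), the J-domain protein of the import motor, went from 28.9 and 29 to 47.8 and 54.2 CPM, with 0.81 as fitted and -0.04 with the trend removed. HSPA9, the HSP70 of the same motor, went from 550 and 527 to 741 and 661 CPM (log2 fold change 0.38, SE 0.09, edgeR adjusted p = 0.0038), with 0.18 after removal. DNAJC11, which binds the complex that shapes the cristae, moved the other way, from 70.4 and 71.1 to 45.6 and 50.5 CPM, with -0.56 as fitted (SE 0.09, edgeR adjusted p = 0.000421) and -0.31 after removal, and 44.3% of its exon bases are shared with THAP3. The plot of ER and mitochondrial genes by library shows both NAC libraries above the untreated pair for most of these genes.

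**Figure D4:**
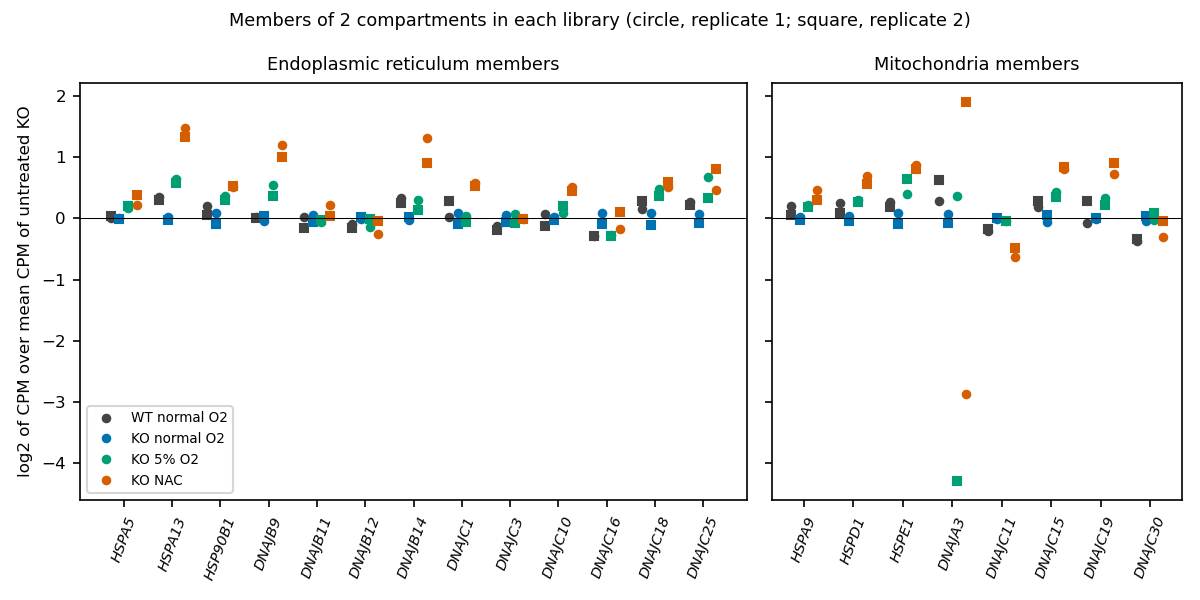
Log2 of the CPM of each library over the mean CPM of the untreated KO libraries for the 13 ER and 8 mitochondrial members tested, coloured by group, with circles for replicate 1 and squares for replicate 2. Both NAC libraries (orange) lie highest for HSPA13, DNAJB9 and DNAJB14, lowest for DNAJC11, and far apart for DNAJA3.

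In the cytosol and nucleus, the constitutive HSP70 HSPA8 was higher with NAC, at 3825 and 4475 CPM against 2722 and 2653 CPM in untreated KO and 2688 and 2654 CPM in WT. Both NAC libraries lay above the other 6, with a log2 fold change of 0.63 (SE 0.08, edgeR adjusted p = 0.000111) and 0.29 with the trend removed. HSPA14, an HSP70 that sits on ribosomes, went from 61.3 and 63.6 to 95.1 and 105 CPM (0.68 as fitted, 0.0084 after removal), while HSPA2 went from 35.5 and 34 to 26.9 and 24.8 CPM (log2 fold change -0.43, SE 0.12, edgeR adjusted p = 0.013), a call lost with the trend removed (-0.31, edgeR adjusted p = 0.0694). For HSPA2, both untreated KO libraries lay below both WT libraries, and both NAC libraries lay below those. Neither inducible HSP70 gene passed the test: HSPA1B was at 5.23 and 3.59 CPM in untreated KO and 3.13 and 3.14 CPM with NAC (log2 fold change -0.49, SE 0.25, edgeR adjusted p = 0.139). HSPA1A held 10 and 14 counts in untreated KO and 32 and 6 with NAC, with the 32 counts in the library that held the stromal transcripts (log2 fold change 0.78, SE 0.76, edgeR adjusted p = 0.439). For HSPA1A, HSPA1B and HSPA8, 76.9%, 73.7% and 53.0% of the 31-base words occur elsewhere in the primary assembly, so reads can be lost or shared between copies.

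Among the HSP110 exchange factors, HSPA4 and HSPA4L were higher with NAC, with log2 fold changes of 0.28 and 0.72. Without the trend they were 0.14 (edgeR adjusted p = 0.236) and 0.61 (edgeR adjusted p = 0.0501), and both calls were also lost in some fits that left out 1 library, without NAC replicate 1 among them. HSPH1 was at 253 and 241 CPM in untreated KO and 228 and 226 CPM with NAC, with -0.12 as fitted (SE 0.09, edgeR adjusted p = 0.298) and -0.39 with the trend removed (edgeR adjusted p = 0.00377). The stress-inducible HSP90AA1 went from 2281 and 2111 to 3080 and 2568 CPM (0.36 as fitted, SE 0.10, edgeR adjusted p = 0.0104) and its value after removal was -0.03. HSP90AB1 was at 3664 and 3352 CPM in untreated KO and 3867 and 3541 CPM with NAC, and the groups overlapped (0.08, SE 0.08, edgeR adjusted p = 0.466). Taking the 13 tested heat-inducible members as a list, 5 were higher with NAC (HSPA8, HSPA4L, HSP90AA1, HSPD1 and HSPE1), where 23.8% of all genes were. The list holds HSPA8 and HSP90AB1, named above as constitutive forms. The median log2 fold change of the list was 0.36, and -0.03 with the trend removed. After removal 1 was higher (HSPA8) and 2 were lower (DNAJA1 and HSPH1), where 13.8% and 11.7% of all genes were. The list also includes DNAJB1, at 133 and 136 CPM in untreated KO and 136 and 157 CPM with NAC, and DNAJA1, at 260 and 247 against 241 and 315 CPM.

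Of 5 small heat shock proteins tested, HSPB11 was higher with NAC, from 13.1 and 13.5 to 19.7 and 20.5 CPM (0.60 as fitted, -0.04 after removal). HSPB11 is also known as IFT25, a part of the ciliary transport complex. HSPB1 was at 147 and 157 CPM in untreated KO and 143 and 126 CPM with NAC (log2 fold change -0.17, SE 0.10, edgeR adjusted p = 0.175). HSPB8, the partner of BAG3 in selective autophagy, was at 15.6 and 17.4 against 15.4 and 18.7 CPM. HSPB6 held 94 counts in NAC replicate 1 and 24 in replicate 2, beside 29 and 84 in untreated KO. The divergent HSP70 gene HSPA12B, known from endothelial cells, was lower with NAC, at 2.45 and 4.41 CPM against 6.69 and 5.44 CPM (log2 fold change -0.83, SE 0.28, edgeR adjusted p = 0.0327), but its value with the trend removed was -0.32 (edgeR adjusted p = 0.464). The call was also lost in the fit without NAC replicate 1, where the value was -0.46.

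J-domain genes outside the ER and mitochondria split in both directions with NAC. DNAJC8 went from 127 in both untreated libraries to 231 and 217 CPM (log2 fold change 0.82, SE 0.10, edgeR adjusted p = 5.97e-05), and its value with the trend removed was 0.34. DNAJA2 went from 167 and 152 to 272 and 237 CPM (log2 fold change 0.67, SE 0.10, edgeR adjusted p = 0.000164), with 0.16 after removal. DNAJC24 (DPH4), which acts in the diphthamide modification of elongation factor 2, went from 6.99 and 8.84 to 17.1 and 12.2 CPM (0.89 as fitted, 0.23 after removal), and DNAJC9, a histone chaperone, from 29.1 and 30.4 to 39.4 and 36.8 CPM (0.36 as fitted, -0.12 after removal). DNAJB2 (HSJ1), which has ubiquitin-binding motifs and takes HSP70 clients to the proteasome, was lower, at 22.8 and 22.6 CPM against 38.6 and 37.9 CPM. Its log2 fold change was -0.76 (SE 0.10, edgeR adjusted p = 0.000103) and -0.34 with the trend removed (edgeR adjusted p = 0.0187). DNAJC5 (CSP), a co-chaperone of secretory vesicles, went from 124 and 125 to 72.1 and 79.8 CPM (-0.72 as fitted, -0.14 after removal), and DNAJC13 (RME-8), of endosomes, from 57 and 47.9 to 39.3 and 35.2 CPM (-0.49 as fitted, -0.47 after removal).

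For DNAJB2, WT stood with untreated KO, at 34.1 and 36.3 CPM, so both NAC libraries lay below the other 6. The same held for DNAJC5, whose other 6 libraries were between 110 and 125 CPM, and for DNAJC11, whose others were between 61.6 and 71.1 CPM. In the class C family as a whole, 9 of 25 tested members were higher and 3 lower with NAC, beside the 23.8% and 20.8% of all genes, and with the trend removed 6 were higher and 4 lower. In class B, DNAJB9 and DNAJB14 were higher and DNAJB2 was lower of 9 tested, beside the same 23.8% and 20.8% of all genes. After removal of the trend, DNAJC17, a J-domain protein tied to splicing, was higher and DNAJA1, DNAJB11, DNAJC2, DNAJC7 and HSPH1 were lower, although none of these 6 had been called as fitted.

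Fewer chaperone genes passed the test at 5% O2. The titles give no treatment length here either, so a difference in time in culture cannot be told apart from low O2. With edgeR, 5 of 61 members (8.2%) were higher than in KO at normal O2, where 3.68% of all genes were higher, and 0 were lower, where 4.13% of all genes were. At an unadjusted p under 0.05, 17 members were higher and 5 lower, where 12.4% of all genes were in each direction, and DESeq2 called 8 higher and 0 lower, where it called 9.36% and 9.02% of all genes. By the study's criteria 0 members were higher, where 0.811% of all genes were, and 0 were lower, where 1.21% were. The median log2 fold change was 0.14 over the members and -0.0002 over all genes, and over the members it was 0.047 with the trend removed and 0.017 without members that have copies. The untreated KO libraries are shared with the NAC comparison, so the comparisons are not independent.

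HSPA13 had the largest called difference, at 75.4 and 71.8 CPM against 48.8 and 47.1 CPM (log2 fold change 0.62, SE 0.09, edgeR adjusted p = 0.00519). HSPE1 was at 72.8 and 86.6 CPM against 58.6 and 51.7 CPM (0.53, SE 0.11, edgeR adjusted p = 0.0186). HSPA8 was at 3627 and 3393 CPM against 2722 and 2653 CPM (0.38, SE 0.08, edgeR adjusted p = 0.0222). For HSPA13, HSPE1 and HSPA8, both 5% O2 libraries lay above both WT libraries as well. DNAJC8 was at 180 and 152 CPM (0.38, SE 0.10, edgeR adjusted p = 0.0375) and HSP90B1 at 944 and 902 CPM (0.33, SE 0.09, edgeR adjusted p = 0.0384). The calls were kept in the fit with only the libraries compared, but all or most were lost when single libraries were left out. The folds kept their sign there. They ran from 0.58 to 0.65 for HSPA13, from 0.40 to 0.65 for HSPE1 and from 0.34 to 0.43 for HSPA8. For DNAJC8 they ran from 0.26 to 0.50, and for HSP90B1 from 0.24 to 0.42. Without either untreated KO library or without 5% O2 replicate 1, 0 of the 5 were called, and without 5% O2 replicate 2, DNAJC8 and HSPA13 were. With the trend removed, 0 members were called in either direction, where 1.07% of all genes were higher and 0.408% were lower, and the value of HSPA13 was 0.35 (edgeR adjusted p = 0.0681). Spearman's rho with GC content was -0.463 across the members and -0.328 across all genes.

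DNAJA4 was at 3 and 6 counts at 5% O2 against 3 and 4, a log2 fold change of 0.47 (SE 0.74, edgeR adjusted p = 0.752), and at this depth a difference was not detectable. DNAJA1 was at 314 and 304 CPM, above the 260 and 247 CPM of untreated KO, without passing the test (0.29, SE 0.12, edgeR adjusted p = 0.168). HSPD1 was at 1597 and 1557 CPM (0.29, SE 0.08, edgeR adjusted p = 0.0567), HSP90AA1 at 2731 and 2615 CPM (0.28, SE 0.10, edgeR adjusted p = 0.0981) and HSPA9 at 629 and 614 CPM (0.21, SE 0.09, edgeR adjusted p = 0.166). None of these genes passed the test. That both 5% O2 libraries lay above both untreated KO libraries in each of them is a description, not counted over all genes. With the trend removed, DNAJA1 was at 0.05, HSPD1 at 0.06, HSP90AA1 at 0.13 and HSPA9 at 0.13 (edgeR adjusted p from 0.362 to 0.884). HSPA5 was at 1125 and 1153 CPM (0.19, SE 0.08, edgeR adjusted p = 0.165), HSP90AB1 at 3791 and 4027 CPM, HSPH1 at 249 and 265 CPM, DNAJB1 at 152 and 134 CPM and HSPB1 at 144 and 162 CPM. HSPA1B was at 4.61 and 4.52 CPM.

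In the direct comparison, more members were higher in KO with NAC than were higher in KO at 5% O2. The titles name neither treatment length nor vehicle, so a difference in these cannot be told apart from the treatments. With edgeR, 16 of 61 members (26.2%) were higher with NAC than at 5% O2, where 15.5% of all genes were, and 4 (6.56%) were lower, where 13.6% were. The largest differences among those called were DNAJC24 with 0.99 (SE 0.20, edgeR adjusted p = 0.00415), DNAJB14 with 0.91 (SE 0.13, edgeR adjusted p = 0.000839), HSPA13 with 0.79 (SE 0.09, edgeR adjusted p = 0.000362), DNAJB9 with 0.65, DNAJC1 with 0.56 and DNAJC19 with 0.53. The 4 lower members were DNAJB2 with -0.75 (SE 0.10, edgeR adjusted p = 0.000564), DNAJC5 with -0.62, DNAJC4 with -0.60 and DNAJC11 with -0.52. By the study's criteria 1 member was higher, where 1.95% of all genes were, and 0 were lower, where 2.46% were. Without 5% O2 replicate 2, 2 of the 16 (HSPA13 and DNAJB14) and 3 of the 4 were called, although over the fits that left out 1 library the folds kept their sign and ran, for example, from 0.27 to 0.40 for HSPD1 and from 0.51 to 0.61 for DNAJC1. Without NAC replicate 1, 18 members were higher and 4 lower. With the trend removed, 5 members were higher (DNAJB14, DNAJC1, DNAJC10, DNAJC17 and HSPA13), where 8.34% of all genes were, and 9 were lower, where 7.77% were. For DNAJA4 the difference was 1.53 (SE 0.62, edgeR adjusted p = 0.0839), and for HSPA5, HSP90AA1 and HSP90B1 it was 0.12, 0.08 and 0.20, each with an adjusted p above 0.1.

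The wider folding pathway was listed as 30 further genes, of which 29 were tested: heat shock factors, exchange factors, HSP90 co-chaperones and J-domain proteins with other names. Between KO and WT, edgeR called none of them, and their median log2 fold change was -0.05. With NAC, 10 of the 29 were higher, where 23.8% of all genes were, and 6 were lower, where 20.8% were, with a median of 0.14. HSF1, the main activator of heat shock genes, went from 108 and 115 CPM in untreated KO to 67.6 and 72.3 CPM (log2 fold change -0.67, SE 0.11, edgeR adjusted p = 0.000308), and HSF2, its relative, from 14.5 and 15 to 30 and 25.2 CPM (0.91, SE 0.13, edgeR adjusted p = 0.000186). BAG3, an HSP70 exchange factor of selective autophagy, went from 40.3 and 43.7 to 25.5 and 22.8 CPM (-0.80, SE 0.11, edgeR adjusted p = 0.000125). GRPEL2, an exchange factor of mitochondrial HSP70, went from 44.7 and 39.5 to 85.5 and 72.4 CPM (0.91, SE 0.11, edgeR adjusted p = 6.65e-05). Removal of the trend left -0.33 for HSF1, 0.26 for HSF2 (edgeR adjusted p = 0.124), -0.60 for BAG3 and 0.45 for GRPEL2. For HSF1, HSF2, BAG3 and GRPEL2 both NAC libraries lay outside the range of the other 6. GRPEL1, its paralogue, was at 60.8 and 63.1 CPM in untreated KO and 73.8 and 62.9 CPM with NAC.

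Among HSP90 partners, PTGES3 (p23), which closes the HSP90 clamp, went from 508 and 525 to 848 and 815 CPM (0.69, SE 0.08, edgeR adjusted p = 5.03e-05), AHSA1, ST13, PPID and SUGT1 were also higher, with log2 fold changes from 0.353 to 0.521, as was TRAP1, the mitochondrial HSP90, with 0.285, and CDC37, which brings kinases to HSP90, was lower, at 152 and 150 against 206 and 200 CPM (-0.43, SE 0.08, edgeR adjusted p = 0.00144). STIP1, the adaptor between HSP70 and HSP90, was at 437 and 422 CPM in untreated KO and 506 and 477 CPM with NAC (0.19, SE 0.08, edgeR adjusted p = 0.0588). GAK, a J-domain protein that uncoats clathrin vesicles, was lower, at 70 and 73.8 against 123 and 122 CPM (-0.77, SE 0.09, edgeR adjusted p = 3.99e-05). Removal of the trend left PTGES3 at -0.015 and GAK at -0.165, neither past the threshold, CDC37 at -0.305 and TRAP1 at 0.443. It left SUGT1 at 0.461 (edgeR adjusted p = 0.0044) and AHSA1 at 0.297 (edgeR adjusted p = 0.0838). The sign turned for ST13, at -0.157 (edgeR adjusted p = 0.12), and PPID, at -0.116 (edgeR adjusted p = 0.446). At 5% O2, GRPEL1 (0.45) and PTGES3 (0.42) were higher and GAK (-0.35) was lower, and with the trend removed none of these passed the test. With the trend removed, 5 of the list were higher and 5 lower with NAC, with a median of 0.10.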

How the data were processed

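Total RNA of WA26 hESCs was sequenced from TruSeq libraries. The authors trimmed reads, aligned them with HISAT2 to hg38 and deposited featureCounts read counts per gene, with an annotation not given in the sources used here. Members and lists were chosen with earlier results of these data known. Of 12 labelled samples, 8 libraries were analysed here. Library totals (31236968 to 41639350 counts) limit precision, and intervals cover counting error only.

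The deposited counts were scaled by TMM in edgeR 4.0.16 (R 4.3.3), filtered with a minimum count of 10, and fitted with 1 mean per group over 8 libraries by the quasi-likelihood test, with Benjamini-Hochberg adjustment over 15916 genes and calls at an adjusted p under 0.05. The biological coefficient of variation was 13.7% with 4 residual degrees of freedom. The fit was tested on simulated data. Named were DNAJA4, the 6 members with the largest called changes per direction and comparison, and a fixed set of core members, and others were named to account for each list. Alternatives were RLE and upper quartile scaling, DESeq2 1.42.0, other filters, a replicate block, fewer libraries, and removal of a length and GC trend (mgcv 1.9.3), known for 97.2% of tested genes. A gene of the wider pathway list is not reported here. Gene positions came from GENCODE and promoters from RefSeq.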

Additional observations from a re-analysis of the deposited data

How the results depend on the processing

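With 2 libraries per group and 4 residual degrees of freedom, small changes were limited by the spread between libraries, and members near the count minimum by depth. Of 56 called changes of single genes, 13 kept direction and threshold under every alternative run and 24 under all except removal of the length and GC trend, which reversed 6 and left 29 short of the threshold. The cause was not tested where none is given.

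Between KO and WT, the count of lower members was 3 with no filter, 3 with only the libraries compared, 3 with DESeq2, 2 by the study's criteria and 0 where each library had to hold 10 counts or more, a filter that drops DNAJA4. The median of the members was 0.008 without members that have copies. With NAC against untreated KO, higher members numbered 11 with the trend removed, 4 by the study's criteria and 17 to 27 when single libraries were left out, and lower members 0 by the study's criteria and 3 to 7 when single libraries were left out. The median was 0.225 with no filter, 0.236 with 10 counts in every library, 0.008 with the trend removed, 0.242 with only the libraries compared, 0.202 with DESeq2, 0.13 without members that have copies, and 0.217 to 0.302 when single libraries were left out. At 5% O2, higher members numbered 9 with no filter, 13 with only the libraries compared, 8 with DESeq2, 0 with the trend removed, 0 by the study's criteria and 0 to 2 when single libraries were left out, lower members 1 with no filter and 1 with only the libraries compared, and the median was 0.047 with the trend removed and 0.017 without members that have copies. For NAC against 5% O2, higher members numbered 5 with the trend removed, 10 with only the libraries compared, 1 by the study's criteria and 2 to 18 when single libraries were left out, lower members 9 with the trend removed and 0 by the study's criteria, and the median was 0.04 with the trend removed and 0.06 to 0.164 when single libraries were left out.

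Signs are given for the genes named by the fixed rule only, since signs of other members turned as well. With the trend removed, they turned as follows. Between KO and WT, HSPE1 went to 0.011 (and HSPA8 to -0.017 with upper quartile scaling). With NAC, HSPE1 went to -0.07, HSPB11 to -0.04, DNAJC19 to -0.041, HSP90AA1 to -0.025, DNAJC9 to -0.123, DNAJA1 to -0.445, HSP90AB1 to -0.104 and HSPB1 to 0.002. At 5% O2, DNAJA2 went to -0.003 and HSPH1 to -0.032. For NAC against 5% O2, HSPE1 went to -0.213, HSP90AA1 to -0.153 and HSP90B1 to -0.067 (and DNAJB1 to -0.002 with only the libraries compared). When single libraries were left out, signs also turned for the following of these genes. Between KO and WT, DNAJA1 ran from -0.016 to 0.212, HSPA1B ran from -0.526 to 0.014, HSPA8 ran from -0.008 to 0.028, HSPH1 ran from -0.013 to 0.206 and HSPB1 ran from -0.017 to 0.082. With NAC, DNAJA1 ran from -0.073 to 0.313, DNAJA3 ran from -2.873 to 1.905 and HSPA1A ran from -0.606 to 1.438. At 5% O2, DNAJA4 ran from -0.271 to 1.034, DNAJA3 ran from -4.291 to 0.368, DNAJB1 ran from -0.005 to 0.177, HSPA1A ran from -0.958 to 0.165, HSPA1B ran from -0.196 to 0.345 and HSPB1 ran from -0.076 to 0.097. For NAC against 5% O2, DNAJA1 ran from -0.359 to 0.027, DNAJA3 ran from -2.325 to 5.237, DNAJB1 ran from -0.072 to 0.128, HSPA1A ran from -0.341 to 1.731 and HSP90AA1 ran from -0.061 to 0.204.

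The replicate numbers did not pair the samples: libraries with the same number had deviations that correlated between -0.0226 and 0.0816. With the replicate block, 0 members were higher and 1 lower between KO and WT, 25 and 6 with NAC, 7 and 0 at 5% O2, and 14 and 5 for NAC against 5% O2.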
